A study of Homo sapiens with 10 samples.

Results

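The genes described here encode caspases of the mitochondrial route of apoptosis and the proteins that switch them on or hold them back. They are *CASP2*, *CASP6*, *CASP9*, *APAF1*, *CYCS*, *XIAP*, *BIRC2* and *DIABLO*, chosen by symbol, and all 8 were found among the 23426 gene symbols of every sample. Among them only *CASP6* codes for an executioner caspase, since *CASP2* and *CASP9* code for initiators. RNA was sequenced from MDA-MB-468, a breast cancer cell line labelled basal, and ZR75-1, a breast cancer cell line labelled luminal. Each line was kept for 6 h with DMSO, the solvent control, in 2 samples or with PKC412 at 1 μM in 3 samples. PKC412 (midostaurin) is a derivative of staurosporine that inhibits several protein kinases. The dose is that of the labels and the methods, and figure legends of the study name a lower one. Each group comes from a single established line grown in culture, and the study's methods state triplicate treatments, while 2 DMSO samples per line were analysed here. Whether the samples of a group were separate cultures is not stated outright, so that p-values measure the spread between these samples, which may be technical.

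Caspases are proteases that are made as inactive precursors and cut their targets after aspartate. In the mitochondrial route, cytochrome c (*CYCS*) leaves the mitochondria and binds APAF1, which assembles into the apoptosome and activates the initiator caspase-9 (*CASP9*). Caspase-9 then sets off the executioner caspases, which cut the proteins of the cell. XIAP blocks caspases directly, BIRC2 (cIAP1) is a ubiquitin ligase of the same family, and DIABLO (SMAC) is released from mitochondria to displace such inhibitors. Caspase-2 (*CASP2*) is an initiator activated on a separate platform. Most of this control acts on proteins, while the values here are amounts of mRNA.

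Levels are FPKM, fragment counts divided by the length of the transcript and by the size of the library, which allows genes of different length to be set side by side. FPKM sums ranged from 599228 to 835069 per sample, and the number of reads behind them is unknown. The 6 basal markers summed to 2398 to 2661 FPKM in MDA-MB-468 and to 0.760 to 2.20 in ZR75-1, while the 6 luminal markers summed to 5504 to 10043 in ZR75-1 and to 1908 to 3532 in MDA-MB-468. Markers of leukocytes, endothelium and fibroblasts summed to at most 1.00. ZR75-1 DMSO replicate 1 and ZR75-1 PKC412 replicate 2 stood apart from the other 3 samples of their line. They did so in how FPKM varied with the GC content of transcripts, and this touches most of the genes below. In MDA-MB-468, DMSO replicate 1 had the highest such slope, as set out with the GC slope.

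All 8 genes were measured above 0 in all 10 samples, at levels that spanned about 2 orders of magnitude. *DIABLO* was the highest of the 8 in all 4 groups, with means of 48.1 to 59.2 FPKM, and *APAF1* was the lowest, with means of 0.614 to 1.30 FPKM. *CYCS* came next after *DIABLO* in 3 groups, and its samples overlapped those of no neighbour in MDA-MB-468. In MDA-MB-468 DMSO, *CASP2* (7.61 FPKM) and *CASP6* (7.35 FPKM) followed with overlapping samples, and *BIRC2*, *XIAP* and *CASP9*, with means of 4.40, 4.30 and 4.23 FPKM, overlapped in turn. In ZR75-1 DMSO the samples of most neighbours in the order overlapped, and *CASP9* held place 4 at a mean of 4.77 FPKM. In ZR75-1 PKC412 *CASP9* held place 2, and its samples overlapped neither those of *DIABLO* above nor those of *CYCS* below.

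**Figure D1:**
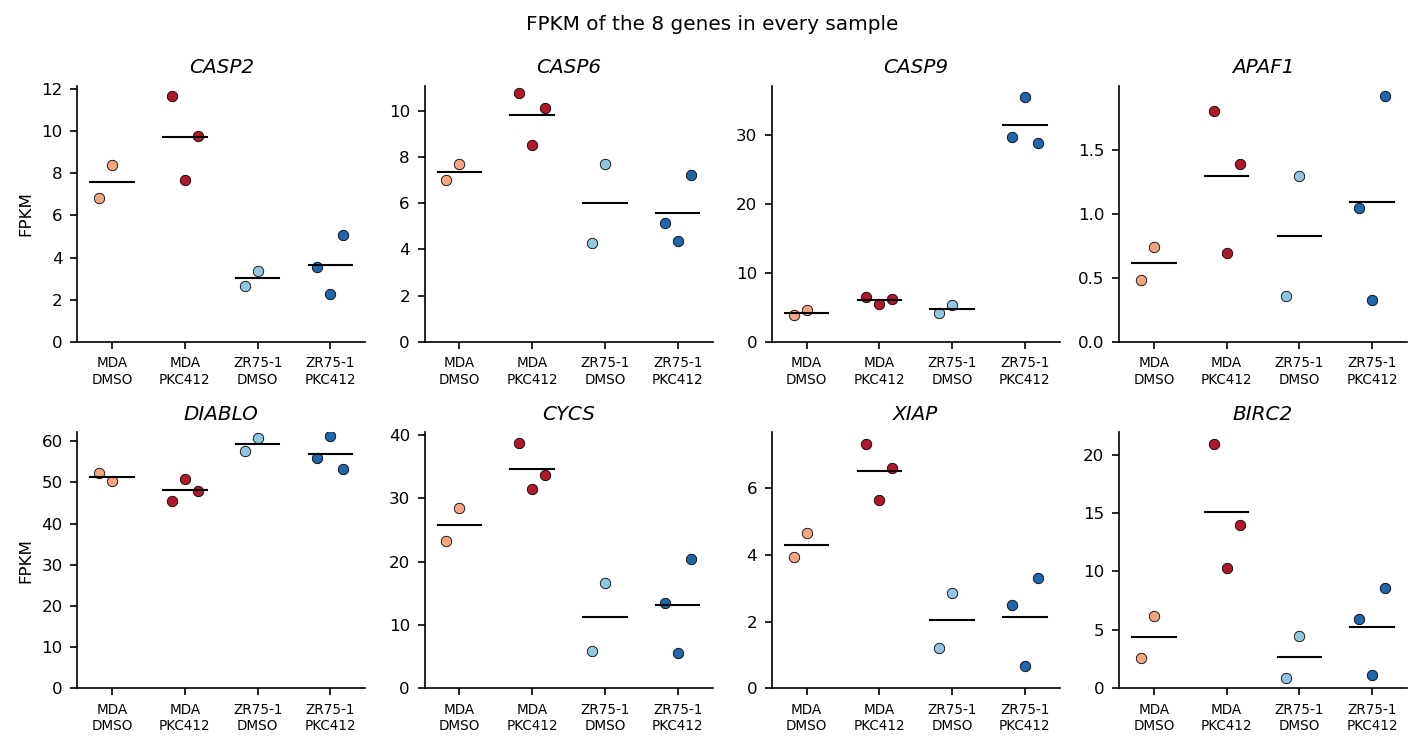
FPKM of each gene (vertical axis, linear, from 0, with its own scale in each panel) in the 10 samples, by cell line (MDA stands for MDA-MB-468) and agent; points are samples and bars are group means. The 3 ZR75-1 PKC412 samples of *CASP9* sit between 28.9 and 35.5 FPKM, above its 7 other samples, and *DIABLO* varies little.

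The first comparison asked how the agent changed these genes within each line. In ZR75-1 the mRNA of the initiator *CASP9* rose 6.58-fold with PKC412, and no other gene of the 8 passed the test. In MDA-MB-468 none of the 8 passed it. There 7 of 8 differences were above 0, where 65% of all genes were, and the largest belonged to the inhibitor gene *BIRC2*. Adjusted for GC content and length, as set out below, 4 of 8 were above 0, where 51.7% of all genes were. The change of *CASP9* differed between the lines, by a test of that difference. Differences were tested with limma on log2(FPKM + 1) over the 16071 genes whose mean FPKM exceeded 0.1 in 1 or more of the 4 groups, and were called at a Benjamini-Hochberg adjusted p under 0.05. Of all genes tested, 1.26% were called in MDA-MB-468 and 0.946% in ZR75-1, against 0 and 1 of these 8. A single gene of the 8 had an unadjusted p under 0.05 in MDA-MB-468, which was *CASP9*. The fit takes 1 spread per gene from both lines, so the errors given for MDA-MB-468 also carry the spread of ZR75-1. With MDA-MB-468 fitted alone, the SE was 0.139 for *CASP6*, 0.137 for *CYCS*, 0.159 for *XIAP* and 0.393 for *BIRC2*. That fit called 0 of the 8, where 81 of 14955 genes were called.

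*CASP9* stood at 4.20 and 5.34 FPKM in the ZR75-1 DMSO samples and at 29.7, 35.5 and 28.9 FPKM with PKC412. The groups lay far apart, and the samples that stood apart were the lower of the controls and the highest of the treated. On the log2(FPKM + 1) scale the difference was 2.49 (SE 0.154, 95% interval 2.14 to 2.84, limma adjusted p = 0.000299). It held place 52 from the highest and place 10 by p among the 16071 genes. With ZR75-1 fitted alone by limma, the SE was 0.198 (adjusted p = 0.0410), where 12 of 14587 genes were called. In MDA-MB-468, *CASP9* stood at 3.91 and 4.55 FPKM with DMSO and at 6.53, 5.42 and 6.25 FPKM with PKC412. Here too all treated samples lay above the controls, but the step was smaller, 0.43 on the log2 scale (SE 0.154, limma adjusted p = 0.254). The difference between the lines in the PKC412 effect, MDA-MB-468 minus ZR75-1, was -2.06 (SE 0.217, limma adjusted p = 0.0120), and *CASP9* was the only gene of the 8 called there, where 0.268% of all genes were. That call was lost without MDA-MB-468 DMSO replicate 2 (adjusted p = 0.0618) and without MDA-MB-468 PKC412 replicate 3 (0.0550), with differences of -1.97 and -2.08. In ZR75-1 the call held without either sample that stood apart and without both (2.26, adjusted p = 0.00289).

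*CASP9* lies on the minus strand of chromosome 1, at chr1:15490832-15526534 in GRCh38 as GENCODE 29 annotates it, a protein-coding gene. Its neighbours were looked at because reads of overlapping genes cannot be told apart unless counting uses strand, which is not stated in the sources used here. *CELA2B*, an elastase gene on the opposite strand that overlaps its 3′ end by 569 bases, was listed at 0 in 7 samples and at 0.139, 0.0266 and 0.00776 FPKM in the 3 ZR75-1 PKC412 samples. *DNAJC16*, a chaperone-family gene that starts 279 bases from the 5′ end of *CASP9* on the other strand, stood at 1.50 and 1.70 FPKM in ZR75-1 DMSO and at 2.04, 1.09 and 3.19 with PKC412, with overlapping groups. *CELA2A*, a related elastase gene more than 5 kb away, was listed at 0 in the same 7 samples as *CELA2B* and at 0.0858, 0.0954 and 0.0561 FPKM in ZR75-1 PKC412. Both elastase genes were thus above 0 only in the samples in which *CASP9* was high, and their part in the values of *CASP9* was not tested. Outside the locus, the 3 genes nearest to it in the pattern of 4 group means, of 12342 compared, were *SNORD115-24*, *SNORD18C* and *ZBED1*. Both small nucleolar RNA genes were above 0 in only 1 sample each, at 134 FPKM in ZR75-1 PKC412 replicate 2 and at 196 FPKM in replicate 3. *ZBED1*, which codes for a DNA-binding zinc finger protein, followed *CASP9* in its group means, though not in the order of the treated samples, at 3.80 and 4.43 FPKM in ZR75-1 DMSO and 29.5, 32.9 and 36.2 with PKC412. In MDA-MB-468 it stood at 3.88 and 4.34 FPKM with DMSO and at 8.50, 6.85 and 7.76 with PKC412. Its root mean square difference from *CASP9* over the 4 group means was 0.17 on the log2 scale.

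**Figure D2:**
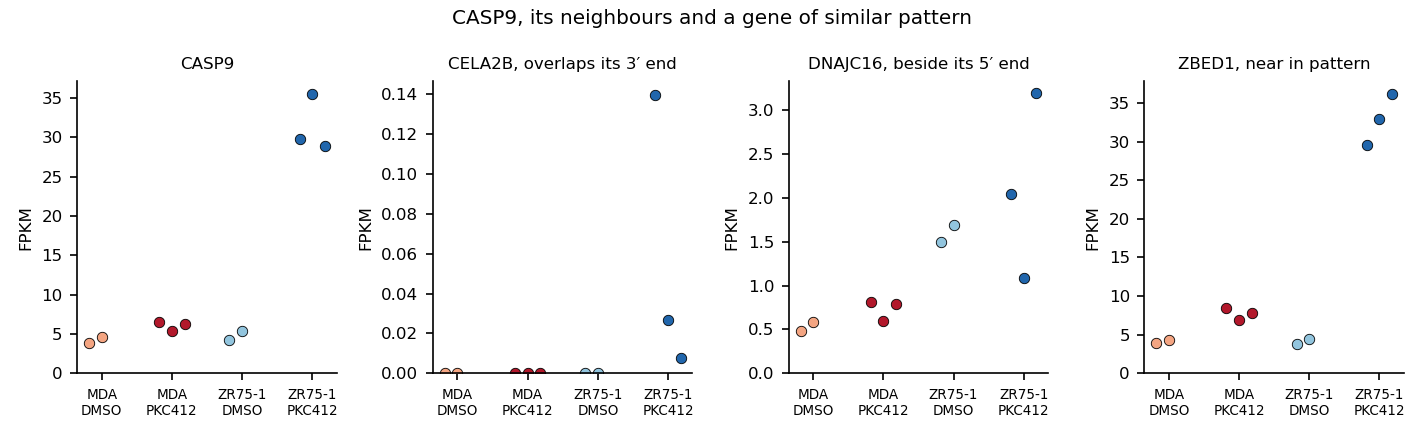
FPKM (vertical axis, linear, from 0, scale differing between panels) of *CASP9*, of the neighbours *CELA2B* and *DNAJC16*, and of *ZBED1* in the 10 samples by line (MDA stands for MDA-MB-468) and agent, 1 point per sample. *CASP9* and *ZBED1* both lie between 28.9 and 36.2 FPKM in the 3 ZR75-1 PKC412 samples, while *CELA2B* is at most 0.139 and *DNAJC16* between 0.483 and 3.19 FPKM.

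The RefSeq promoter table, in GRCh38.p14 coordinates, holds windows of 250 bases before to 50 bases after a transcript start, and gave 16 windows for the 8 genes, all of which matched. Both *CASP9* windows are shown because this gene carried the only called response, with matches to the GC box GGGCGG, searched on both strands, in capitals. The first is chr1:15524166-15524465 and the second chr1:15524741-15525040, both on the minus strand and printed 5′ to 3′.
CASP9 window 1: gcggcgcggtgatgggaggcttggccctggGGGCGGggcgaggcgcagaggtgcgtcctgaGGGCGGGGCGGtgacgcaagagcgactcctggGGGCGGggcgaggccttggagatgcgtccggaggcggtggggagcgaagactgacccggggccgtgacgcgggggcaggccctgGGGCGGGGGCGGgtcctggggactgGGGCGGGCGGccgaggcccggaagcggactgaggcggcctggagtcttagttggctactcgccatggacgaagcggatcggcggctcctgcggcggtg
CASP9 window 2: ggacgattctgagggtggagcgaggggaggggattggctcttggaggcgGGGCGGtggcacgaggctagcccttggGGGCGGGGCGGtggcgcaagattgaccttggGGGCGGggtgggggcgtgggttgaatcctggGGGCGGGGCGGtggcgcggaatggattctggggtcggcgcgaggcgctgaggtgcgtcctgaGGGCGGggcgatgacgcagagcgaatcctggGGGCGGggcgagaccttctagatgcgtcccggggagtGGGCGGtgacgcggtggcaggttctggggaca
They hold 8 and 9 matches, some of which overlap each other, against 8 or more in 0.81% of all 35116 promoter windows, and at least 1 match in 45%. None of them overlaps a match to the other letters searched. The windows are rich in these bases as a whole, with a GC content of 76% and 71.3%. None of the 16 windows held the AP-1 letters TGANTCA, which are in 7.7% of all windows. Such matches describe the letters only.

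The other caspase genes did not pass the test for PKC412 in either line. *CASP2* stood at 6.82 and 8.40 FPKM in MDA-MB-468 DMSO and at 11.7, 7.71 and 9.78 with PKC412, with overlapping groups and a log2 difference of 0.31 (SE 0.276, adjusted p = 0.517). In ZR75-1 it stood at 2.65 and 3.38 FPKM with DMSO and at 3.54, 2.29 and 5.09 with PKC412, a log2 difference of 0.17 (SE 0.276, adjusted p = 0.887). *CASP6*, the executioner, stood at 7.01 and 7.69 FPKM in MDA-MB-468 DMSO and at 10.8, 8.52 and 10.1 with PKC412. Its MDA-MB-468 groups did not overlap, yet the log2 difference of 0.37 (SE 0.253, adjusted p = 0.415) had a 95% interval of -0.22 to 0.95. In ZR75-1 the *CASP6* groups overlapped, with 4.29 and 7.70 FPKM against 5.16, 4.35 and 7.21 and a log2 difference of -0.07. *TMEM139*, which lies 167 bases from *CASP2*, did not share its pattern: it read 11.1 in each MDA-MB-468 DMSO sample and 3.79 to 4.65 FPKM with PKC412, and 8.44 and 9.37 against 4.32 to 5.19 FPKM in ZR75-1.

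The genes of the apoptosome trigger, *CYCS* and *APAF1*, did not pass the test in either line. *CYCS* stood at 23.2 and 28.4 FPKM in MDA-MB-468 DMSO and at 38.8, 31.5 and 33.7 with PKC412, without overlap, for a log2 difference of 0.41 (SE 0.520, adjusted p = 0.647). In ZR75-1 it ranged from 5.84 to 16.6 FPKM within DMSO and from 5.53 to 20.4 within PKC412, so that the samples of a group differed more than the groups did. *APAF1* was low throughout, at 0.483 and 0.744 FPKM in MDA-MB-468 DMSO and 1.80, 0.693 and 1.39 with PKC412. Its log2 difference there was 0.48 (SE 0.367, adjusted p = 0.450). In ZR75-1 it ranged from 0.324 to 1.92 FPKM, with the lowest value of each group in the sample that stood apart. The ratio of *CASP9* to *APAF1*, the adaptor that activates its product, was 4.13 and 11.8 in ZR75-1 DMSO and 28.5, 110 and 15.1 with PKC412, and 3.62 to 8.10 over the 5 MDA-MB-468 samples. In every treated ZR75-1 sample this ratio was thus above those of the 7 others.

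Of the inhibitor genes, *BIRC2* had the largest difference in MDA-MB-468. It stood at 2.63 and 6.16 FPKM with DMSO and at 20.9, 10.3 and 13.9 with PKC412. All treated samples were above both controls, and the means differed 3.42-fold. The controls lay far apart from each other. The log2 difference was 1.60 (SE 0.708, 95% interval -0.03 to 3.23, adjusted p = 0.307), at place 139 from the highest of 16071 genes and not called. With MDA-MB-468 fitted alone by limma, the SE was 0.393 (adjusted p = 0.148), again not called. Without DMSO replicate 1, the lower control, the log2 difference of *BIRC2* was 1.11, and without DMSO replicate 2 it was 2.09. In ZR75-1 *BIRC2* stood at 0.842 and 4.51 FPKM with DMSO and at 5.93, 1.18 and 8.61 with PKC412, with overlapping groups and a log2 difference of 0.72 (SE 0.708, adjusted p = 0.765). *XIAP* stood at 3.94 and 4.67 FPKM in MDA-MB-468 DMSO and at 7.33, 5.63 and 6.59 with PKC412, again without overlap and not called (0.50, SE 0.401, adjusted p = 0.468). In ZR75-1 *XIAP* was at 1.22 and 2.85 FPKM against 2.48, 0.671 and 3.30, with a log2 difference near 0 (95% interval -0.92 to 0.92). The ratio of *BIRC2* to *XIAP* was 0.668 and 1.32 in MDA-MB-468 DMSO and 2.85, 1.83 and 2.12 with PKC412, without overlap, and in ZR75-1 it was 0.691 and 1.58 against 2.39, 1.75 and 2.61, also without overlap. These ratios were looked at after the values were known and were not tested.

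*BIRC2* lies on the plus strand of chromosome 11, at chr11:102347211-102378670 in GRCh38. Its first promoter window, chr11:102346964-102347263 on the plus strand, is shown because *BIRC2* was the only gene of the 8 with the full cAMP response element TGACGTCA, in capitals at bases 244 to 251.
BIRC2 window 1: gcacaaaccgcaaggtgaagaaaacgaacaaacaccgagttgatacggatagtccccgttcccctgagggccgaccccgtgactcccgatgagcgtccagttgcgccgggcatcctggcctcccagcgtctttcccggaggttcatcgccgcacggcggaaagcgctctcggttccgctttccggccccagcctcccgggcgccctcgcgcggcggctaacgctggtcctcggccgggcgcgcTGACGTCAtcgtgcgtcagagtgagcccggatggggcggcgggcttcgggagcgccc
The element reads the same on both strands and is in 1.8% of all promoter windows. It overlaps no match to the other patterns searched, and the second *BIRC2* window, which overlaps the first, holds it too. The close relative *BIRC3* (cIAP2), not one of the 8 genes, stood at 1.13 and 1.49 FPKM in MDA-MB-468 DMSO and at 8.20, 5.20 and 6.25 with PKC412, a log2 difference of 1.69 (SE 0.697, adjusted p = 0.293) that was not called either. In ZR75-1 *BIRC3* was at 3.99 and 6.17 FPKM against 9.55, 1.18 and 13.3, and the lowest value was in the treated sample that stood apart.

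*DIABLO*, whose product displaces the inhibitors, varied least. It stood at 52.3 and 50.4 FPKM in MDA-MB-468 DMSO and at 45.5, 50.9 and 47.9 with PKC412 (log2 difference -0.09, 95% interval -0.32 to 0.13). In ZR75-1 it stood at 57.7 and 60.7 FPKM with DMSO and at 55.9, 61.3 and 53.3 with PKC412 (-0.06, 95% interval -0.28 to 0.16). The highest of the samples of a line was 1.15 times the lowest in both lines, against 7.94 and 10.2 times for *BIRC2*. As an arithmetic measure of antagonist to inhibitor mRNA, *DIABLO* divided by the sum of *XIAP* and *BIRC2* was 7.96 and 4.65 in MDA-MB-468 DMSO and 1.61, 3.19 and 2.34 with PKC412, without overlap. It sets a gene of high GC content over genes of low GC content, and once GC content and length were adjusted for, as set out with the GC slope, it was 4.80 and 4.08 against 2.54, 3.21 and 2.79, still without overlap but closer together. In ZR75-1 the unadjusted ratio was 28.0 and 8.25 against 6.64, 33.2 and 4.48, and the highest value of each group was in the sample that stood apart.

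**Figure D3:**
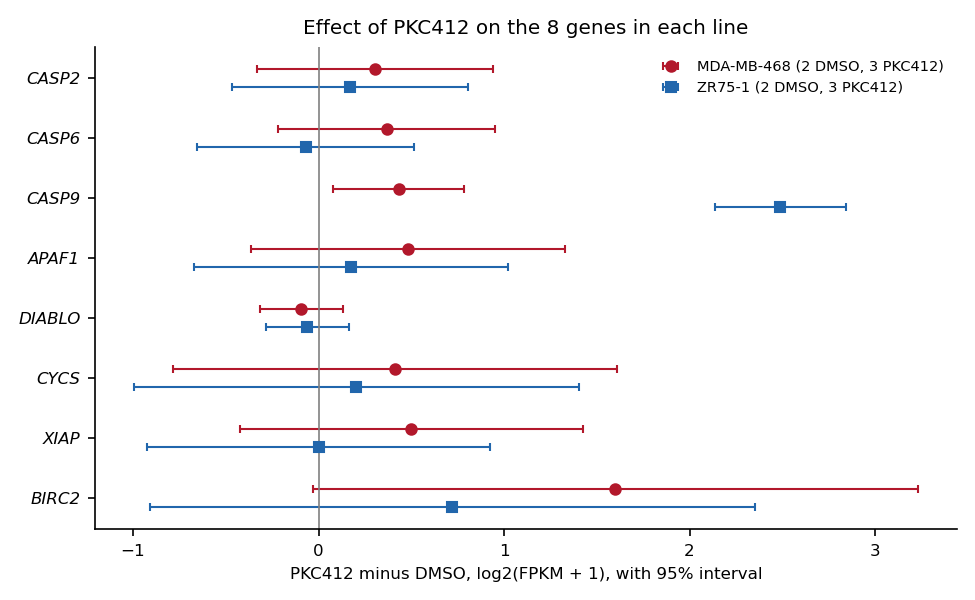
Difference PKC412 minus DMSO on the log2(FPKM + 1) scale (horizontal axis) for each gene in MDA-MB-468 (circles) and ZR75-1 (squares), with 95% intervals from limma over 2 DMSO and 3 PKC412 samples per line. The intervals rest on a spread shared by both lines. *CASP9* in ZR75-1 lies at 2.49, apart from 0 and from its value of 0.43 in MDA-MB-468; the interval of *BIRC2* in MDA-MB-468 reaches from -0.03 to 3.23.

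The way FPKM depended on GC content moved with the agent in MDA-MB-468 and with the samples that stood apart in ZR75-1. The GC slope of a sample is the change in log2 FPKM, relative to the mean of its line, per 10 percentage points of transcript GC. In MDA-MB-468 it was 0.373 and 0.0573 with DMSO and -0.287, -0.0240 and -0.119 with PKC412. The value of 0.373 was that of DMSO replicate 1, the control with the lower *BIRC2* value. Both controls thus had higher slopes than all treated samples, so that in MDA-MB-468 the slope and the agent cannot be told apart. In ZR75-1 it was 0.314 and -0.192 with DMSO and -0.107, 0.342 and -0.356 with PKC412. The transcripts of *BIRC2* and *XIAP* have a GC content of 38% and 39%, those of *CYCS* and *APAF1* 41.6% and 41.7%, and those of *CASP6* and *CASP2* 45.1% and 48.9%. In these 6 genes both ZR75-1 samples of high slope lay below the other 3, which 40.1% of all genes tested showed. The exceptions were *CASP9* (52.8%) and *DIABLO* (55.9%). The part of the slope in the differences between groups was not tested beyond the adjustment that follows.

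With FPKM adjusted for GC content and length within each line, the log2 differences of *CASP2*, *CYCS* and *XIAP* in MDA-MB-468 turned from above 0 to -0.05, -0.22 and -0.14, and none of the 8 was called there (3.61% of all genes were). *BIRC2* in MDA-MB-468 kept a difference of 0.95 (SE 0.362, adjusted p = 0.198), with adjusted values of 4.44 and 6.92 FPKM against 13.6, 10.2 and 11.4. *CASP9* in ZR75-1 kept its call at 2.24 (SE 0.182, adjusted p = 0.000690), where 2.82% of all genes were called, with adjusted values of 5.39 and 5.27 FPKM against 29.1, 37.5 and 22.1. The adjustment was chosen after seeing the data.

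As a group, 5 of the 8 genes had all PKC412 samples above both DMSO samples in MDA-MB-468, where 39.6% of all genes tested did, and 0 of 8 had all below, where 16.3% did. In ZR75-1 only *CASP9* had all treated samples above, where 14.8% of all genes did, and 0 of 8 had all below (6.98%). The median log2 difference of the 8 was 0.42 in MDA-MB-468 against 0.11 over all genes tested, and 0.17 in ZR75-1 against 0.07. Differences above 0 were found for 7 of 8 genes in MDA-MB-468 and for 6 of 8 in ZR75-1, and for 65% and 65.2% of all genes. Adjusted for GC content and length, 2 of 8 genes, *CASP9* and *BIRC2*, had all PKC412 samples above in MDA-MB-468 (28.2% of all genes) and 0 had all below (24.4%), and in ZR75-1 *CASP9* had all above (15.7%) and *DIABLO* all below (13.6%). The median adjusted log2 difference of the 8 came to 0.04 for MDA-MB-468 and -0.06 for ZR75-1, against 0.0068 and 0.0042 over all genes, with 4 of 8 and 3 of 8 differences above 0, where 51.7% and 51.4% of all genes were.

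**Figure D4:**
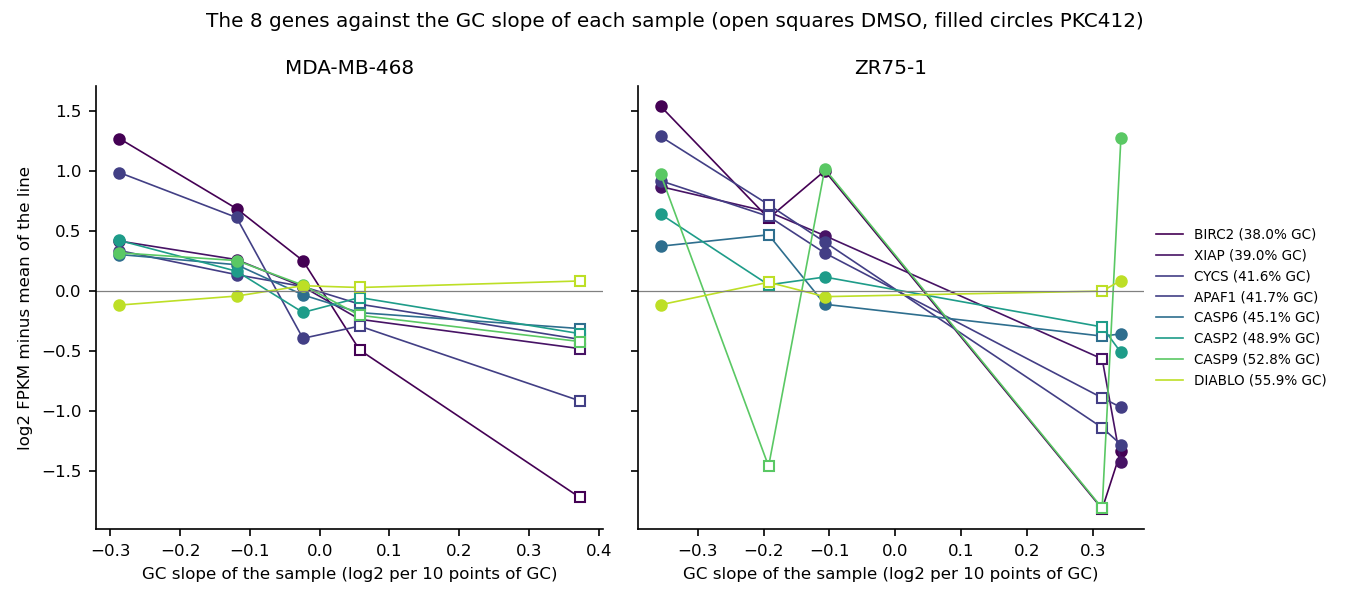
log2 FPKM of each gene relative to its mean in the line (vertical axis) against the GC slope of the sample (horizontal axis, log2 per 10 points of GC), for MDA-MB-468 and ZR75-1; open squares are DMSO, filled circles PKC412, and lines join the samples of a gene, coloured from low GC (*BIRC2*, 38%) to high GC (*DIABLO*, 55.9%). In MDA-MB-468 both DMSO samples lie at the high slopes; in ZR75-1 the agents mix along the axis, genes of low GC fall at high slope, and *CASP9* separates by agent instead.

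The second comparison asked how the lines differed in these genes. In DMSO, *CASP2* was higher in MDA-MB-468, and it was the only gene of the 8 called, where 42.4% of all genes tested were. In PKC412, *CASP2*, *CASP6*, *CYCS* and *XIAP* were higher in MDA-MB-468, and *CASP9* and *DIABLO* were higher in ZR75-1, so that 6 of 8 were called, where 58.6% of all genes were. *APAF1* and *BIRC2* were called in neither. Such counts out of 8 genes moved with the choice of fit, as set out below, and are not read as a trait of these genes. As RNA came from bulk cultures, fewer cells that express a gene and less RNA per cell cannot be told apart.

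*CASP2* was 2.52-fold higher in MDA-MB-468 with DMSO (log2 difference 1.10, SE 0.302, limma adjusted p = 0.0189) and 2.67-fold higher with PKC412 (1.24, SE 0.246, adjusted p = 0.00296), and the lines did not overlap in either agent. The DMSO call was lost without MDA-MB-468 DMSO replicate 2 (0.97, limma adjusted p = 0.110) or ZR75-1 DMSO replicate 1 (0.97, adjusted p = 0.0925). *CASP9* differed by -0.14 with DMSO (SE 0.168, 95% interval -0.52 to 0.25) and by -2.19 with PKC412 (SE 0.137, adjusted p = 4.23e-06), the latter resting on the same ZR75-1 samples as its response to the agent. *CYCS* was higher by 1.28 on the log2 scale with DMSO (95% interval -0.03 to 2.59, adjusted p = 0.108) and by 1.49 with PKC412 (SE 0.465, adjusted p = 0.0243). *XIAP* was higher by 0.86 (95% interval -0.16 to 1.87, adjusted p = 0.159) and by 1.36 (SE 0.359, adjusted p = 0.0119). For both genes the lines did not overlap in either agent, and the widest spread was within ZR75-1.

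*CASP6* differed by 0.30 with DMSO, with overlapping lines, and by 0.74 with PKC412 (SE 0.227, adjusted p = 0.0231). The PKC412 call of *CASP6* was lost without any 1 of MDA-MB-468 PKC412 replicates 1 and 3 and ZR75-1 PKC412 replicates 1 and 2 (0.60 to 0.71, limma adjusted p = 0.0671 to 0.0750). That of *CYCS* was lost without MDA-MB-468 PKC412 replicate 1 or 3 or ZR75-1 PKC412 replicate 2 (1.01 to 1.51, adjusted p = 0.0571 to 0.0710). *BIRC2* differed by 1.56 with PKC412 without overlap between the lines (SE 0.633, adjusted p = 0.0640). *DIABLO* differed by -0.20 with DMSO (adjusted p = 0.171) and was lower in MDA-MB-468 with PKC412, at -0.23 (adjusted p = 0.0470), a call lost in 14 of 20 alternative fits. *APAF1* differed by -0.13 and 0.18, with wide overlap. Non-overlapping lines with MDA-MB-468 above were found for 3 of 8 genes with DMSO and 5 of 8 with PKC412, against 42.3% and 40.3% of all genes, and with MDA-MB-468 below for 1 and 2 of 8, against 27.3% and 24.2%.

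Adjusted for GC content and length within each line, *CASP2*, *CASP6*, *CYCS* and *XIAP* were called higher and *DIABLO* lower in MDA-MB-468 already with DMSO. These were 5 of 8 genes, where 59.3% of all genes were called. The adjustment acts between samples of the same line, so any GC or length dependence that differs between the lines stays in these differences. The adjusted differences with DMSO were 1.17 for *CASP2*, 0.41 for *CASP6*, 1.52 for *CYCS*, 1.16 for *XIAP* and -0.27 for *DIABLO*. With PKC412 the same fit called 7 of 8 genes, *BIRC2* among them (1.42, adjusted p = 0.00454), where 69% of all genes were called.

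**Figure D5:**
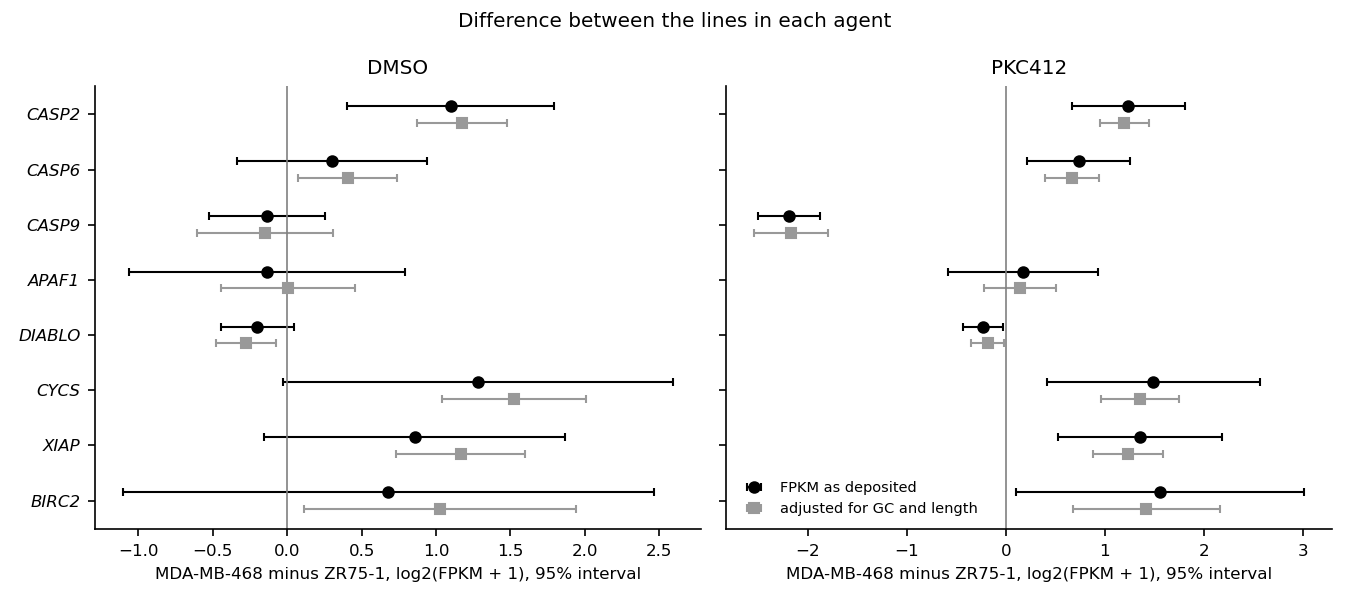
Difference MDA-MB-468 minus ZR75-1 on the log2(FPKM + 1) scale (horizontal axis) for each gene with DMSO and with PKC412, from FPKM as deposited (black circles) and adjusted for GC content and length within each line (grey squares), with 95% intervals from limma. *CASP9* lies at -0.14 with DMSO and at -2.19 with PKC412; *CASP2* lies above 0 throughout, and the adjusted intervals are narrower for most genes.

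The wider pathway was described with lists of 39 further genes, 37 of which passed the filter on low values. For PKC412, limma called 0 of 37 in either line and 0 of 37 for the difference between lines, with 2, 1 and 1 of 37 at an unadjusted p under 0.05. *CASP4*, a caspase of inflammation and among the highest of the other caspases, stood at 44.4 and 49.8 FPKM in MDA-MB-468 DMSO and at 55.9, 51.5 and 55.3 with PKC412, and at 17.1 and 24.4 against 18.4, 18.3 and 23.0 in ZR75-1. *PTMA*, which codes for prothymosin alpha, a regulator of the apoptosome, stood at 1182 and 1243 FPKM against 1444, 1458 and 1486 in MDA-MB-468, and at 339 and 574 against 557, 465 and 560 in ZR75-1. Neither showed a step in ZR75-1 of the size of that of *CASP9*.

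Between the lines, 17 of the 37 genes were called higher and 1 lower in MDA-MB-468 with DMSO, and 18 and 3 with PKC412, where 26.5% and 15.9%, and then 37% and 21.6%, of all genes were. Of the 6 other caspases, *CASP1*, *CASP4*, *CASP10* and *CASP14* were higher in both agents and none was lower. *CASP14*, a caspase of epidermal differentiation, ranged from 302 to 428 FPKM in MDA-MB-468 and was at most 0.263 FPKM in ZR75-1. *CASP1*, also a caspase of inflammation, and *CASP4* had means of 23.5 and 47.1 FPKM in MDA-MB-468 DMSO against 1.34 and 20.7 in ZR75-1 DMSO. *CASP10*, an initiator on death receptors, had means of 2.58 against 0.670 FPKM.

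Of the relatives of *XIAP* and *BIRC2*, 4 of 6 passed the filter. *BIRC5* (survivin), which serves in mitosis, was higher in MDA-MB-468 (126 against 69.4 FPKM with DMSO), and *NAIP*, a sensor of bacterial proteins, was lower (0.102 against 7.59 FPKM). A list of 4 genes held antagonists of these inhibitors and other regulators. Of these, the mitochondrial protease gene *HTRA2* was higher in both agents (27.9 against 11.5 FPKM with DMSO). *XAF1* was called at means of 0.103 and 0.0213 FPKM. *SEPT4* was called lower with PKC412 only (-0.70, limma adjusted p = 0.000818). With DMSO it was also lower, at -0.34 without overlap, but not called (limma adjusted p = 0.0794). Among 8 regulators of the apoptosome and of caspase-2, *PTMA*, *APIP*, *AVEN* and *PIDD* were called higher in both agents. *UACA* was called with PKC412 only, though its samples did not overlap with DMSO either (0.84, limma adjusted p = 0.0876). *PIDD*, part of the platform that activates caspase-2, had means of 5.73 against 1.41 FPKM with DMSO, and *APIP*, which binds APAF1, 21.3 against 5.92. Among 15 substrates and nucleases, *GSN*, *SPTAN1*, *AIFM1*, *DFFA* and *DFFB* were higher in both agents. *LMNA* was called higher with DMSO, *LMNB1* higher and *CIDEB* lower with PKC412. The nuclease gene *DFFB* and its inhibitor gene *DFFA* had log2 differences of 0.54 and 0.43 with DMSO.

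The distance in pattern uses centred group means alone, so a small one does not show that samples or levels were alike. The genes nearest in pattern to the other called members lay at smaller distances from them than *ZBED1* did from *CASP9*. They were *YPEL1*, *HNRNPA3P1* and *ABI2* for *CASP2*, *IRAK4*, *SGCB* and *NIPBL* for *CASP6*, and *FLJ31306*, *FAM210A* and *GINS1* for *CYCS*. For *XIAP* they were *ZNF419*, *DDX50* and *ZNF649*, and for *DIABLO* they were *MGC16275*, *PLEKHM1P* and *RPP38*. Their root mean square differences over the 4 group means ranged from 0.0050 to 0.030 on the log2 scale.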

How the data were processed

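RNA of 10 samples was measured by sequencing. The authors deposited FPKM per gene symbol, 1 table per sample. The submitters' processing notes name CASAVA 1.82, TopHat2 and the build hg19; the annotation and any read division between overlapping genes are not given in the sources used here. Groups were taken from the labels. log2(FPKM + 1) was fitted with limma 3.58.1 in R 4.3.3, with a mean per group (4 groups), empirical Bayes moderation with a mean-variance trend, two-sided tests and Benjamini-Hochberg adjustment over the 16071 genes whose mean FPKM exceeded 0.1 in 1 or more groups. The pseudocount makes fold changes of low genes smaller. An exact permutation test of 2 against 3 samples cannot give p below 0.1 and was not used. The script was tested on simulated data. GC content came from the longest coding transcript in GENCODE 29, to which 88.1% of symbols matched; its coordinates are GRCh38, not the build of the files. The adjusted FPKM removed a polynomial of degree 3 in GC content and in log length per sample, within each line. Alternatives were other pseudocounts, other filters, a median-ratio rescaling, a replicate block, separate fits and each sample left out.

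The text names all 8 members, listed pathway genes called in a contrast or of high level, and the 3 genes nearest in pattern to each member called in a contrast (root mean square difference of centred group means of log2(FPKM + 1), among genes whose mean FPKM exceeded 1 in some group). The members and lists were chosen with earlier results of these data known. Some genes of the pathway are not reported here. *TMEM139* and *BIRC3* were described after their values were seen, as was the choice of the promoter windows. Python 3.11.15 with numpy 2.4.6, pandas 2.3.3 and matplotlib 3.10.9 did the rest.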

Additional observations from a re-analysis of the deposited data

Results flagged for a closer look

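The response of *CASP9* to PKC412 differed between the lines, by a limma test of the difference itself. The PKC412 effect in MDA-MB-468 minus that in ZR75-1 was -2.06 on the log2(FPKM + 1) scale (SE 0.217, adjusted p = 0.0120). All 3 treated samples were above both controls in each line, and the step was 2.49 in ZR75-1 against 0.43 in the other line. The highest limma adjusted p over 19 alternative fits, 0.894, came from the fit with a replicate block, in which 0 of all 16071 genes were called.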

How the results depend on the processing

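Of 792 values of the 40 member differences under alternatives, 712 kept their direction and their side of the threshold, 44 changed sign, 27 lost and 9 gained a call. Values that changed sign had not been called. Whether replicate numbers paired the samples could not be decided. Correlations of a control with the treated sample of equal number were -0.69 and -0.61 in MDA-MB-468, over 7685 genes. In ZR75-1 they were 0.12 and -0.63. With 2 controls per line, both gave the same value with opposite sign against each treated sample, so these correlations are not independent. For MDA-MB-468 PKC412 replicate 1 they were -0.69 and 0.69. With the replicate block within each line, 0 members were called in ZR75-1 and 0 for the difference between lines. The same fit, with 2 residual degrees of freedom, called 0 of all 16071 genes in either, so the counts say nothing particular to these members. In it *CASP9* was at 2.54 (limma adjusted p = 0.478) and -2.13 (adjusted p = 0.894), and in ZR75-1 *CASP2* was -0.0502, *APAF1* -0.10, *CYCS* -0.18 and *XIAP* -0.28. Adjusted for GC and length within each line, 5 members were called between lines in DMSO, where *APAF1* was 0.0058. In MDA-MB-468 *CASP2* was -0.0506, *CYCS* -0.22 and *XIAP* -0.14, in ZR75-1 they were -0.0723, -0.0534 and -0.20, and for the difference between lines *DIABLO* was 0.0885 and *CYCS* -0.17. *XIAP* in ZR75-1 was -0.0605 and -0.0195 with pseudocounts of 0.1 and 0.5 and -0.0819 after median-ratio rescaling. Without both ZR75-1 samples that stood apart, also chosen after seeing the data, *CYCS* in ZR75-1 was -0.0018, *DIABLO* for the difference 0.0583, *CASP6* and *BIRC2* between lines in DMSO -0.0606 and -0.11, and *APAF1* between lines in PKC412 -0.12. The cause was not tested. With 1 sample left out, where a lone control is assumed to vary like the other groups, the ZR75-1 response ranged from -0.0502 to 0.39 for *CASP2*, -0.43 to 0.29 for *CASP6*, -0.20 to 0.55 for *APAF1*, -0.48 to 0.89 for *CYCS*, -0.40 to 0.40 for *XIAP* and -0.0682 to 1.51 for *BIRC2*. The difference between lines ranged from -0.0883 to 0.36 for *CASP2*, -0.0699 to 0.69 for *APAF1*, -0.0769 to 0.0221 for *DIABLO* and -0.48 to 0.89 for *CYCS*. Between lines in DMSO the ranges were -0.0606 to 0.66 for *CASP6*, -0.28 to 0.0074 for *CASP9*, -0.51 to 0.24 for *APAF1* and -0.11 to 1.47 for *BIRC2*, and in PKC412 -0.12 to 0.45 for *APAF1*. Without 1 PKC412 sample, members called ranged from 0 to 1 for the difference, where 16 to 64 of 16016 to 16131 genes tested were called. Between lines in DMSO they reached 3, where 6224 to 7468 of these genes were called. In PKC412 they ranged from 3 to 7, where 7923 to 9884 were. The count was 3 without MDA-MB-468 PKC412 replicate 1 or 3, or ZR75-1 PKC412 replicate 2. What leaving out a control did to the *CASP2* call in DMSO is given above. Median-ratio rescaling moved the median of all genes from 0.11 to 0.04 in MDA-MB-468 and from 0.19 to 0.12 between lines in PKC412. The number of reads is unknown, so no counting error can be given.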
